A study of Equus caballus with 2 samples.

Results

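The abundant long tags on placed chromosomes were 328 of the 19257 sequence tags that RNA-seq of stallion sperm gave. A tag is a stretch of the horse genome over which aligned reads formed a cluster, and its average coverage (AC) is the normalized number of reads over its bases. The members were chosen by their measured length and AC: tags on ECA1 to ECA31 and ECAX, at least 100 bp long and with AC of at least 100, in any letter case. Unplaced contigs (ECAUn) and the mitochondrial (Mt) genome were left out. Length and AC are therefore given as a description, with no test. Total RNA came from ejaculated sperm of 2 reproductively normal, fertile stallions, Equus caballus, 500 ng from each, after gradient centrifugation to remove somatic and immature cells. The ages of the stallions are not given in the sources used here, both belong to 1 group, and there was no treatment. The deposited data hold 1 AC value per tag, so values carry no replicate error, and the spread between stallions and the read depth behind a single tag are not given here. For every member this value equalled the higher of the values of both samples in the list of the study, for most members that of sperm 1. In the other sample a member can therefore lie below the AC minimum. All positions refer to the EcuCab2 assembly.

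Sperm carry little cytoplasm, and their nucleus is packed with protamines in place of most histones, so transcription has largely ended before ejaculation. The RNA that remains includes fragments of ribosomal RNA (rRNA) and mRNAs made earlier in spermatogenesis. Cells also hold small structured RNAs: U1, U4 and U5 work in the spliceosome, U3 in rRNA maturation, 7SK in the control of transcription, 7SL in the signal recognition particle, and Y RNAs bind the Ro protein. Genes of these RNAs lie scattered through mammalian genomes with many copies and derived pseudogenes, and RepeatMasker-type masking writes such copies in lower case.

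The sequences that follow show what the members consist of. Each is the genomic sequence of a tag, read 5′ to 3′ on the strand that holds the letters named, so that minus-strand tags are given as the reverse complement. No RNA reference sequence was compared, and a name stands for letters that the RNA is known by. Those letters are in capitals: ACTTACCTG at the 5′ end of U1, which pairs with the 5′ splice site, CAGGGATCA in U3, GCTTTGCGC in U4, GCGATCTGG in 7SK and GGCTGGTCC at the start of Y RNAs.
U1 letters, chr1:171378358-171378524, plus strand: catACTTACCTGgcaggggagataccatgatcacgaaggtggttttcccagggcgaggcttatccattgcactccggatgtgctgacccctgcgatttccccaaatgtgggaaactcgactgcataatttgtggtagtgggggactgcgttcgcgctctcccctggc
U3 letters, chr11:32834349-32834563, minus strand: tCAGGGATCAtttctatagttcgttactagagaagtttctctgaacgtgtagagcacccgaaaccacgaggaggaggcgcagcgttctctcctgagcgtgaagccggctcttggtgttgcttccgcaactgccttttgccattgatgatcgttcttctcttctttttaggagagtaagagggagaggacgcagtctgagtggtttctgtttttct
U4 letters, chr8:13809481-13809629, plus strand: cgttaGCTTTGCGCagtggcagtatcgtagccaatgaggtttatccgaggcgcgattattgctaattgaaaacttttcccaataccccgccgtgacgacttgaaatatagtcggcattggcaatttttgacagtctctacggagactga
7SK letters, first 300 of 332 bases, chr20:50615137-50615436, plus strand: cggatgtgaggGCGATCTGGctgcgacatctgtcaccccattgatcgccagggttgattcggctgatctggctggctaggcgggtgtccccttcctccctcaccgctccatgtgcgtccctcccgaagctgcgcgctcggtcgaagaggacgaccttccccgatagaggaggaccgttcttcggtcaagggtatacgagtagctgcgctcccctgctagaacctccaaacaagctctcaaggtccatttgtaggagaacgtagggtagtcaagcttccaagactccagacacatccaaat
Y letters, member like Y1, chr4:101105819-101105941, minus strand: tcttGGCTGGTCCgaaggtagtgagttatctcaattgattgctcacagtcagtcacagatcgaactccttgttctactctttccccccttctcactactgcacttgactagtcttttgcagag
Y letters, member like Y4, chr4:101075964-101076063, plus strand: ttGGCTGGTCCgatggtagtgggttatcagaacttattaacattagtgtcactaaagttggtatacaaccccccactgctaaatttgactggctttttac

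The second set is shown for transcripts of other kinds. In the members with GTTCGANNC, the core of the B box inside genes of RNA polymerase III, the matching letters are in capitals. These letters do not tell vault RNA, glutamate tRNA and glycine tRNA apart, and those names were not checked against a reference. The tag similar to the Mt genome has in capitals the 188 bases that equal the Mt sequence. The start of the PRM1 tag has in capitals ATGGCCAGA, a start codon and the next codons of protamine 1, and the tag of PKM2 exon 1 has ATGTCGAAG. The last tag has exon-like ends by a rule of letters near both ends, given further below, and the AG and GT that met it are in capitals. Whether this AG and GT are splice sites was not tested, and the AG may lie inside an exon.
B box, vault RNA-like, chr14:40010127-40010231, plus strand: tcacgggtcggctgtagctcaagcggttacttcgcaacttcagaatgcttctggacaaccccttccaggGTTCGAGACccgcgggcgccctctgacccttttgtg
B box, glutamate tRNA-like, chr17:25605853-25605991, plus strand: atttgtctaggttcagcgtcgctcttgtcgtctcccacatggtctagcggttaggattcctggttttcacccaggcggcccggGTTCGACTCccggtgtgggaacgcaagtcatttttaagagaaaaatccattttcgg
B box, glycine tRNA-like, chr5:36205675-36205799, minus strand: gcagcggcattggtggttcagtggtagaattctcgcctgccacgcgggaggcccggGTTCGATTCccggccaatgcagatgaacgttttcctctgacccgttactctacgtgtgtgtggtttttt
Mt-similar, chr31:1941958-1942153, plus strand: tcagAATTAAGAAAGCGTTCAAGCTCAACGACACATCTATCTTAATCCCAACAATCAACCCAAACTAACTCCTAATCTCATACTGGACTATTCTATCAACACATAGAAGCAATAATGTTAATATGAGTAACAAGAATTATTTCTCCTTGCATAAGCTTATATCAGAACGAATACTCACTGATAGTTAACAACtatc
PRM1, first 300 of 1385 bases, chr13:33206208-33206507, plus strand: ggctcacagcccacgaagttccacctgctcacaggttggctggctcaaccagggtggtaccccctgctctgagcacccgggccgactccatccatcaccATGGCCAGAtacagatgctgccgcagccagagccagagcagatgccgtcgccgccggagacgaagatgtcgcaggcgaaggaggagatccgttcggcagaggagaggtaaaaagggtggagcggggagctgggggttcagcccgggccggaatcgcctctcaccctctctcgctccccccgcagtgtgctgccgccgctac
PKM2 exon 1, chr1:121099972-121100159, plus strand: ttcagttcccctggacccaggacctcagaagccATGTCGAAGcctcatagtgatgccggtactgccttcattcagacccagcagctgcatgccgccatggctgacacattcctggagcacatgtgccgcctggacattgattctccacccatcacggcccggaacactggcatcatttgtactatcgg
Exon-like ends, ECA21, chr21:2532769-2532918, minus strand: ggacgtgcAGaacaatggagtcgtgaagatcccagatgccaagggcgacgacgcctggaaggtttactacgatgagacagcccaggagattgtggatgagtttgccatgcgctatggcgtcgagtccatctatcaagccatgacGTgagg

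The members were 1.70% of all tags and carried 35.9% of the coverage-weighted bases (AC multiplied by length). The 5360 placed tags of at least 100 bp under the AC minimum carried 1.63%, the 1176 placed tags of AC of at least 100 that were shorter carried 3.80%, and the 70 abundant long tags of ECAUn carried 54.5%. Length ran from 100 to 7530 bp with a median of 162.5 bp. Of the members, 209 were 100 to 199 bp long, 63 were 200 to 499 bp and 56 were 500 bp or longer. AC ran from 100.05 to 242049 with a median of 192.5. It was 10000 or more in 19 members, 1000 to under 10000 in 40, 200 to under 1000 in 97 and under 200 in 172, so that 52.4% lay in the lowest range.

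**Figure D1:**
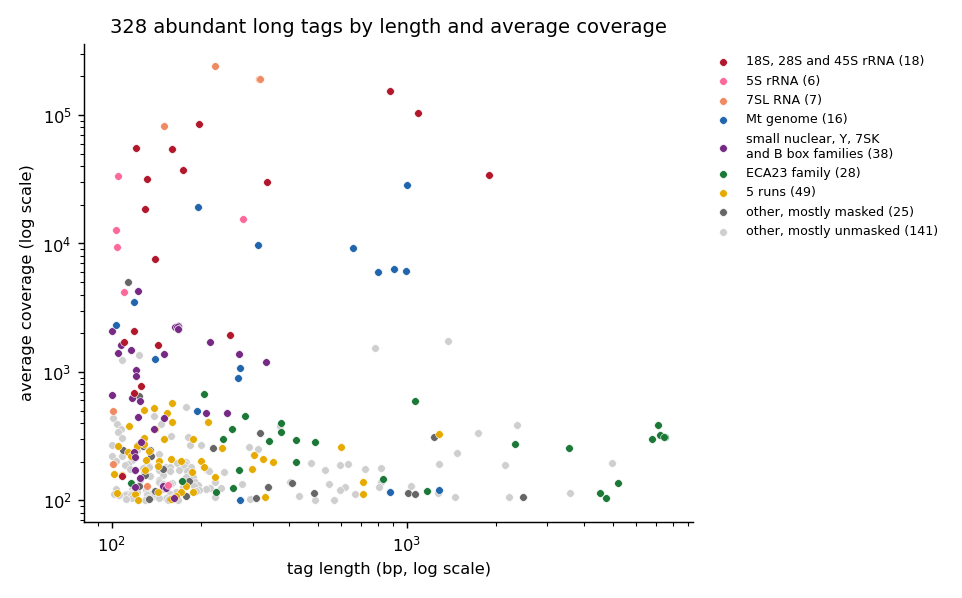
Length in bp (horizontal, log scale) against AC (vertical, log scale) of the 328 members, 1 point per tag, coloured by group with the number of members. Points above AC of 10000 belong to the rRNA, 5S, 7SL and Mt groups, and the tags over 6000 bp to the ECA23 family.

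The thresholds cut through a continuous range. The members with the lowest AC were chrX:81773268-81773434 with 100.05, chr4:37856879-37857149 with 100.52 and chr11:23571788-23571916 with 101.04. Just outside lay chr24:34534093-34534277 with AC of 99.96, chrX:123048802-123048910 with 99.89 and chr25:38397643-38397802 with 99.48. Between AC of 100 and 110 there were 37 members, and between 90 and 100 there were 50 placed tags of at least 100 bp. The 3 highest of the 4 members of exactly 100 bp had AC of 2087 (chr4:101075964-101076063), 663 (chr4:31667526-31667625) and 268 (chr5:11280049-11280148). Among the 5 tags of 99 bp just outside, the highest had AC of 10551 (chr23:54958279-54958377), 276 (chr21:2531456-2531554) and 163 (chr1:141024292-141024390). Some tags left out by length thus had more coverage than most members.

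Coverage was concentrated in few members. By similarity to tags that the study lists as rRNA or 7SL RNA, to the Mt tags, by the 5S letters, or by membership in a family with such a tag, 47 members (14.3%) formed 4 groups with 93.8% of the coverage-weighted bases of the members. All 20 members with the highest AC belonged to these groups. Whether similar tags within a group count the same reads was not tested. A further 38 members in families of small structured RNAs carried 1.04%, and the other 243 carried 5.18%. Among members of AC of at least 10000, 1 of 19 was wholly unmasked, against 12 of 40 at 1000 to under 10000, 63 of 97 at 200 to under 1000 and 131 of 172 under 200.

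**Figure D2:**
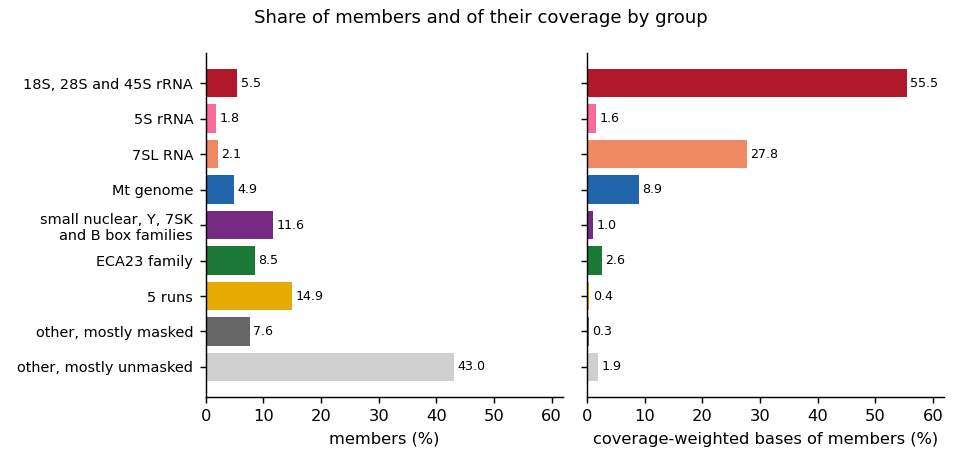
Share of the 328 members (left, %) and of their coverage-weighted bases (right, %) by group, 1 bar per group. The rRNA group holds 5.5% of the members and 55.5% of the bases, and the other, mostly unmasked members hold 43.0% and 1.9%.

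Ribosomal RNA is the core of the ribosome and the most abundant RNA of most cells. A tag was taken as similar when 40 bp or more, and no less than 50% of its length, aligned with 80% identity or more. Against the 8 tags that the study lists as rRNA, 17 members met this. These include the 3 listed tags that were members themselves, since a match of a tag to itself was counted. Another member, chr8:49756399-49756524 with AC of 771, belonged to the same family of similar members, giving 18 on 11 chromosomes. With 90% identity or more, 7 members in place of 17 were similar to the listed tags, matches of a tag to itself included. AC of the 18 ran from 156 (chr2:96558717-96558824) to 155206 (chr3:36417092-36417971, listed as 28S rRNA), a wider range than in any other group but 7SL. The next were chr1:89070737-89071827, also listed as 28S, with AC of 104507 and chr2:41401844-41402040 with 85760. The latter is listed by the study under CTNNBIP1, a regulator of beta-catenin, and it aligned over 183 bp with 87.4% identity to the 28S tag on ECA1. chr29:1282347-1282467, listed as 45S pre-rRNA, had AC of 55336 and no similar listed tag other than itself. On ECA1, 3 of these members lay within 6896 bp: the 28S tag, chr1:89070491-89070650 with AC of 53941, which aligned over all its 160 bases to a 28S tag of ECAUn at 93.8% identity, and chr1:89075492-89077386 with AC of 34184, which aligned over 1479 bp to an 18S tag of ECAUn at 96.1%. The other members best aligned with that 18S tag were chr24:17085679-17085852 with AC of 37167, chr6:35572971-35573102 with 31927, chr4:40912961-40913296 with 30327, chr10:26389538-26389667 with 18607 and chr21:49294841-49294950 with 1717. Both subunits of the ribosome were thus represented. All 18 members were mostly masked.

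The 6 members of the 5S family, each on another chromosome, had AC of 33750 (ECA20), 15439 (chr1:69176799-69177077), 12795 (chr25:3243643-3243745), 9312 (chr14:23823478-23823581), 4225 (chr29:9441543-9441652) and 132 (chr19:39086232-39086386). They shared 89.3% to 98.9% identity and aligned with none of the listed rRNA tags over enough of their length. The name rests on the letters GTCTACGGC within the first 20 bases of a tag of the family. These letters were in 4 members, in 3 of them within the first 20 bases. Of the 5836 tags of at least 100 bp, 8 (0.137%) held them, 4 within the first 20 bases.

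The 7SL family had 7 members and 27.8% of the coverage-weighted bases of all members. 7SL RNA is the scaffold of the particle that brings ribosomes to the endoplasmic reticulum. Its highest members were a tag of 224 bp on ECA1 with AC of 242049, chr1:183631902-183632216 with 190566, chr1:183854089-183854405 with 189364 and chrX:87062618-87062767 with 82611. The first of these is listed by the study under NEMF, the third under ribosomal protein S29 and the last as 7SL RNA. The other 3, chr12:3488570-3488670, chr6:40039229-40039329 and chr18:5094049-5094180, had AC of 497, 193 and 130, so that the 7 fell into a high and a low set with none between. Only 3 members were similar to a listed 7SL tag over 50% of their own length; the other 4 were joined through other members. The tags of 315 and 317 bp on ECA1, 222504 bp apart at their outer ends, shared 305 identical bases in a row, and their AC differed by 0.631%. Whether the same reads were counted in both, and so in the 27.8%, was not tested.

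Nuclear copies of Mt sequence are known in many genomes. Of the members, 16 on 9 chromosomes aligned with the Mt genome, 15 of them wholly unmasked. In the Mt genome the 12S and 16S rRNA genes lie near the start of the sequence as it is numbered in horses. The 13 members that aligned within the first 3 kb (one of them also with the last bases, across the origin) had AC of 492 to 28776 with a median of 5994. The 3 that aligned elsewhere, at 8065-8936, 10498-11783 and 13147-13411 of the Mt genome, had AC of 116 (chr27:37372347-37373222), 120 (chr31:16520200-16521489) and 101 (chr4:37856879-37857149), below all of the 13, although their identity was 98.9% to 99.4%. For comparison, the long Mt tag, which spans Mt positions 1-15387, had AC of 4390, and the one over the last bases had 77.2.

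The highest of these members was chr1:139013086-139014090 with AC of 28776, which aligned with Mt positions 1855-2859 at 95.2% identity. Its neighbours chr1:139012086-139013080 and chr1:139011261-139012060 had AC of 6098 and 5994 and aligned with positions 853-1847 and 22-821. The 3 tags thus followed the Mt order in a single piece of ECA1. chr31:1941958-1942153 had AC of 19300, and its 188 aligned bases were identical to Mt positions 1638-1825. Elsewhere in the first 3 kb, chr8:84206518-84206831 had AC of 9702 at 90.1% identity, chr1:111356756-111357410 had 9153 at 98.8% and chr1:21812146-21813050 had 6377 at 96.5%. A second ordered piece, of 3 tags within 1093 bp on ECA20, had AC of 1267, 1069 and 492 at 89.6% to 91.8% identity. Whether the reads of these members came from the nuclear or the Mt copy was not tested.

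**Figure D3:**
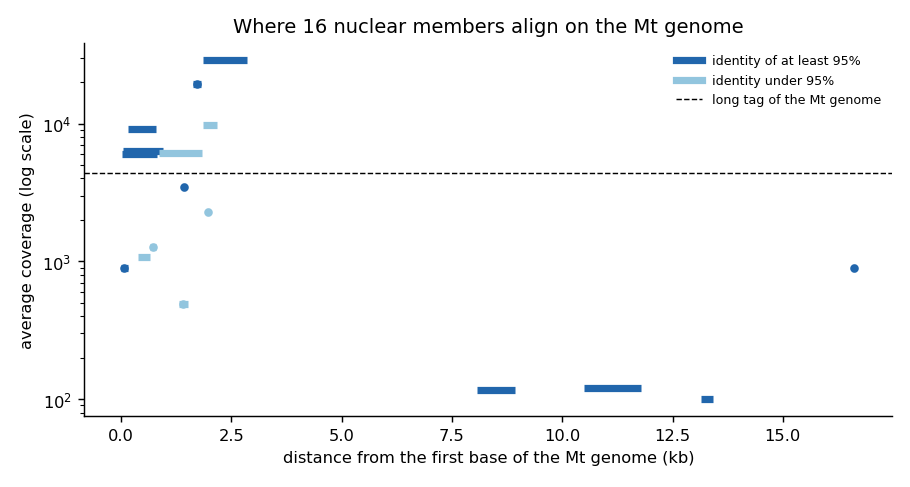
Position on the Mt genome (horizontal, kb from its first base) and AC (vertical, log scale) of the 16 nuclear members that aligned with it, as bars or, under 0.25 kb, as points. The member across the origin appears at both ends. Dark blue marks identity of at least 95%, and the dashed line the AC of 4390 of the long Mt tag. The 3 members beyond 8 kb lie at AC of 101 to 120, under all others.

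Families of small structured RNAs had 38 members, with AC from 105 to 4232. A family holds members with the letters and those joined to one of them at 80% identity or more. Members of the Y and B box families were thus not all similar to each other. By the letter case of the deposited sequences 36 of the 38 were mostly masked, that is in lower case.

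The U1 family was the largest of them, with 12 members on 5 chromosomes and AC of 1368 to 2283. In 9 members AC lay between 2177 and 2283, a 1.05-fold range, and the other 3 had 1609 (chr10:64981817-64981923), 1369 (chr1:171443642-171443910) and 1368 (chr6:54624713-54624862). Of the 12, 4 lay within 65553 bp on ECA1, 4 within 26090 bp on ECA11 and 2 within 19963 bp on ECA5. Copies with equal sequence had equal or nearly equal AC. chr1:171431788-171431954 and chr11:32873570-32873736 were identical over 167 bases and both had AC of 2283.21. chr11:32879220-32879386 and chr11:32893456-32893622 both had 2282.3, and chr5:47734147-47734313 and chr5:47753943-47754109 both had 2176.52. Over all members, 6 pairs were identical over at least 95% of the longer tag, and AC differed by at most 0.631% within a pair. Whether such copies share reads was not tested. ACTTACCTG was present on either strand in 11 members and in 24 (0.411%) of the 5836 tags of at least 100 bp, and AATTTGTGG, the site where Sm proteins bind U1, in 10 and in 19 (0.326%).

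The U5 family had 6 members with AC of 623 (ECA2), 591 (chr2:13597924-13598048), 446 (chr2:39754235-39754357), 236 (chr5:27916819-27916937), 219 (chr1:127072938-127073057) and 173 (chr1:127080624-127080743). All were 117 to 125 bp long, about the size of a tag over a whole U5 gene. The U5 letters GCCTTTTAC were in 7 members and in 10 (0.171%) of the 5836 tags of at least 100 bp. Within the first 60 bases they were in 6 members and in 6 (0.103%) of these tags. The U4 pair lay within 961 bp on ECA8, with AC of 129 and 126. The U4 letters GCTTTGCGC were in 2 members and in 7 (0.120%) of these tags. Of the other spliceosomal RNAs, the U2 letters GTAGTATCT were in no member and in 12 (0.206%) of the tags of at least 100 bp, and the U6 letters ACAGAGAAG in 2 members and in 60 (1.03%) of these tags. The letters of a family say nothing of RNAs whose tags are shorter than the length minimum.

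The U3 family, whose RNA guides the first cuts of pre-rRNA, had 4 members within 20789 bp on ECA11 and 1 on ECA13. On ECA11 their AC was 1710 (chr11:32834349-32834563), 937 (chr11:32855017-32855137), 478 (chr11:32841891-32842099) and 105 (chr11:32846425-32846586), and on ECA13 it was 441 (chr13:25516390-25516539). The U3 members of ECA11 ended 12395 bp before the first U1 member of that chromosome, so that 8 members of both families stood in 1 stretch. AC differed more within the U3 family than within the U1 family. The 7SK family had AC of 1202 (chr20:50615137-50615468), 475 (chr16:23263354-23263598), 283 (chr8:44645321-44645446) and 126 (chr2:73250466-73250585). The highest was also the longest, at 332 bp, and GCGATCTGG was in 2 of the 4.

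The Y family had 5 members, grouped by their letters, and GGCTGGTCC stood within the first 20 bases of 4 of them. The highest, chr4:101105819-101105941 with AC of 4232, is listed by the study under PDIA4, a protein of the endoplasmic reticulum, and its letters on the minus strand are those known from Y1 RNA. chr4:101075964-101076063, with AC of 2087, holds letters known from Y4. GGCTGGTCC alone does not tell Y1 from Y4, and neither name was checked against a reference. The other 3 members were similar to each other, and their AC was 1489 (ECA4), 1040 (chr6:67009246-67009366) and 663 (chr4:31667526-31667625). Anywhere in the tag, GGCTGGTCC was in 6 members of any group and in 31 (0.531%) of all tags of at least 100 bp. Within the first 20 bases it was in 5 members and in 6 (0.103%) of these tags. B box letters were in 6 members and in 48 (0.822%) of the tags of at least 100 bp, and 2 of the 6 belonged to the rRNA group. The other 4 had AC of 1406 (chr14:40010127-40010231, vault RNA-like), 358 (chr17:25605853-25605991), 150 (chr5:36205675-36205799) and 130 (chr3:22929570-22929718). The last pair shared a glycine tRNA-like stretch.

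**Figure D4:**
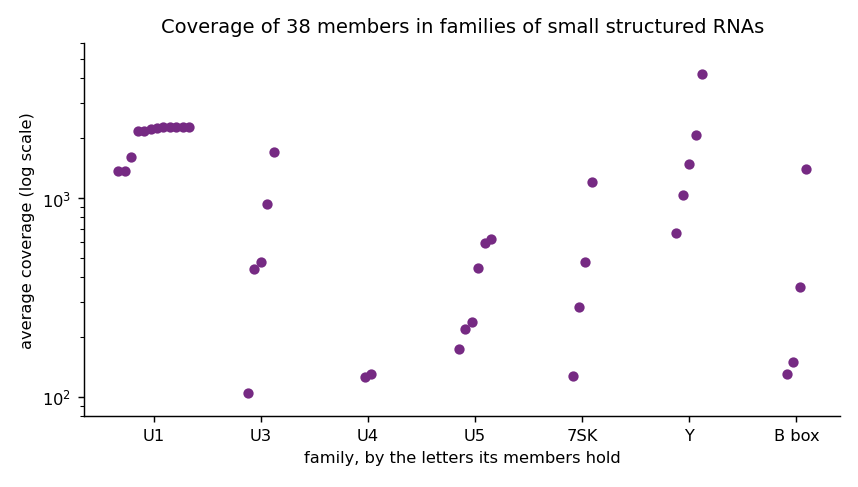
AC (vertical, log scale) of the 38 members in families of small structured RNAs, 1 point per tag, ordered by AC within a family. Of the U1 points, 9 lie between 2177 and 2283, while the Y points run from 663 to 4232.

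The largest family of similar members had 28, of which 24 were on ECA23 between 266428 and 27542849 and 1 each on ECA3, ECA13, ECA18 and ECA27. AC ran from 104 to 678 with a median of 287. Because of it, ECA23 had 29 members among 281 tags (10.3%), and 5 members without it. On the other chromosomes with members the share was 0.259% (ECA15) to 5.28% (ECA25), and ECA26 had no member. Its tags covered 64071 bases, 39.9% of all bases that the members covered, and 5 were over 6000 bp long: chr13:21723235-21730764, chr23:266428-273899, chr23:9394951-9402183, chr3:116333105-116340242 and chr23:18009090-18015893, with AC of 314, 309, 321, 389 and 303. Over 3 chromosomes these values lay between 303 and 389. The longest frames without a stop codon in these 5 tags were 2766 to 4278 bp, and chr23:8433114-8438333 (5220 bp, AC of 135) and chr23:10349194-10353946 (4753 bp, AC of 104) each held a frame of 4353 bp. No member of the family was mostly masked, and 17 were wholly unmasked. A further 69 tags of the series were similar to it, 51 of them on ECAUn with AC of 89.0 to 949 and 14 on ECA23. On ECAUn, 50 of the 70 tags with AC of at least 100 and at least 100 bp were thus similar to the family. The family is called here by the chromosome of most of its members, since no gene or transcript sequence was compared.

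Outside the families, some members lay in runs. Another tag lay within 1 kb of 45.7% of the members and of 48.4% of the placed long tags under the AC minimum, so that closeness to other tags was not more frequent among the members. With gaps of at most 10 kb, 5 runs had at least 5 members and held 49 in all, 47 of them wholly unmasked. On ECA1, 17 members lay between 161239833 and 161276520 with AC of 101 to 504. On ECA21, 11 lay between 2523791 and 2536861 with 117 to 573, and on ECA25, 8 lay between 31715443 and 31730253 with 166 to 521. On ECA11, 7 lay between 24826849 and 24839562 with 108 to 407. The fifth run was PKM2, pyruvate kinase of glycolysis, with 6 members between 121097639 and 121108323 on ECA1. Within a run the highest AC was 2.89 to 4.98 times the lowest, and the members covered 7.77% to 16.0% of the span. Other tags, not counted in these shares, lay between them: the run of 17 members held 20 tags and that of 11 held 16.

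**Figure D5:**
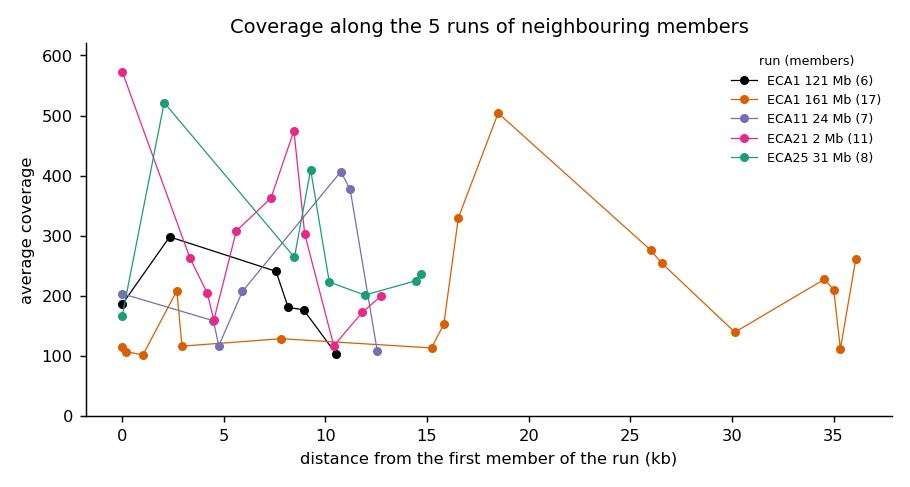
AC (vertical) against the distance from the first member of the run (horizontal, kb) for the 5 runs of neighbouring members, 1 point per tag, with lines joining tags of a run. AC stays between 101 and 573, and the ECA21 and ECA1 161 Mb runs have their highest points at 573 and 504.

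By the tables of the study, 9 tags belong to PKM2, and the 6 members among them were exon 1 with AC of 298, exon 3 with 241, the 5′ UTR part of exon 1 with 186, exon 4 with 180, exon 5 with 177 and exon 6 with 103. All 6 were wholly unmasked. Of the 12 tags of the locus of TNP2 and PRM1, which code for a transition protein and for protamine 1 of sperm chromatin, 1 was a member: chr13:33206208-33207592, 1385 bp, with AC of 1730, which spans both exons of PRM1. None of the 3 tags of CRISP3 was a member. Of these, chr20:47701763-47701860 had AC of 114 and was left out by its length of 98 bp, and the others had AC of 36.0 and 26.1. The tag listed under MIR1248, chr19:24793832-24794009, was 178 bp long and had AC of 537. This is the AC of the whole tag, and the part of the micro RNA in it was not tested. Other genes of sperm chromatin and genes of other cell types were not checked here, since the members could not be matched to genes.

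Exons end at splice sites, where AG precedes and GT follows the exon. Tags were counted as having exon-like ends when CAG or TAG stood in the first 12 bases and GTAAG or GTGAG in the last 12, on either strand. This held for 31 members (9.45%), but 10 of them were of the U1 family, whose 5′ end is complementary to the 5′ splice site and so holds GTAAG on the other strand. Without the U1 family and 2 lower tags with the U1 letters in their first 20 bases, it held for 21 of 316 members (6.65%) and for 123 of the 5358 placed long tags under the AC minimum (2.30%). At 100 to 199 bp the shares were 6.57% of 198 and 2.70% of 3257. With windows of 20 bases they were 13.1% of all members and 5.30% of the long tags under the minimum, U1 included. None of the 70 abundant long tags of ECAUn had such ends, but 59 of them were 500 bp or longer. At that length the share was 1.55% in the placed tags under the minimum. Of the 31, 13 were among the mostly unmasked members outside the groups and 4 in the runs, with examples at chr21:2532769-2532918 (AC of 303) and chr11:24826849-24827048 (AC of 203). Of the 207 wholly unmasked members (63.1%), 28 wholly masked (8.54%) and 93 partly masked (28.4%), 19 unmasked ones had exon-like ends. In the placed long tags under the minimum, 77.3% were unmasked and 4.29% wholly masked, and in the ECAUn tags 28.6% and 11.4%. Masking varied with length, and the ECAUn tags had a median length of 1894 bp. At 100 to 199 bp, 65.1% of the members and 86.2% of the placed tags under the minimum were unmasked. The shares were 68.3% and 70.5% at 200 to 499 bp, and 50% and 45.6% at 500 bp or more. Median GC was 51.3% in the members and 52.5% in the long tags under the minimum.

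The remaining 166 members belonged to none of these groups, 141 mostly unmasked and 25 mostly masked. Apart from PRM1, 4 had AC of over 1000: chr4:94668965-94669077 with 4991, wholly masked, chr2:23236715-23237493 with 1537, chr18:53798570-53798693 with 1348 and chr12:11239317-11239424 with 1244. Most were far lower, with a median AC of 140 in the unmasked and 142 in the masked ones. In 9 of the 56 members of at least 500 bp (16.1%) a frame without a stop codon took up at least 95% of the tag, a share no higher than the 104 of 581 (17.9%) such tags under the minimum. The longest of these frames were in chr31:15693687-15698651, with a frame of 4950 of 4965 bp and AC of 194, chr28:38121996-38124358, with 2361 of 2363 bp and AC of 389, and chrX:40227192-40229349, with 2139 of 2158 bp and AC of 190. On ECA12, 3 adjoining members covered 99.8% of 6789 bp from 25648765 to 25655553 with AC of 337, 107 and 115, GC of 42.7%, 38.8% and 40.7% and no open frame over 348 bp.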

How the data were processed

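Total RNA from ejaculated sperm of 2 fertile stallions was sequenced on the SOLiD 4 platform, 1 library per stallion. The authors aligned single-end reads to EcuCab2 with NovoalignCS, removed reads with several similarly scoring alignments, shortened unaligned reads and tried them again, and clustered alignments into tags with the EXP pipeline. The deposited average coverage is a signal value, scaled to the smaller of both libraries, 1 per tag. Counts of reads per tag were not used here, so the precision of a value is unknown. Removing multiply aligned reads can lower the values of copied sequences. Its effect on the members was not tested, and 2 U1 copies identical over 167 bases had AC of 2283.21 each.

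Tags were read with Python 3.11.15. Similar tags were found with blastn 2.17.0 (words of 11 bases, E-value of 1e-05 or less), from 80% identity over 40 bp and 50% of the tag, or of the shorter tag within families. Families were joined by single linkage. Letters were searched on both strands. To assign a family, they had to start within the first 20 bases (60 for U5), while B box letters counted anywhere in the tag. Y tags were taken at up to 150 bp. Members and other tags were compared by counts and medians, since 1 group with 1 value per tag allows no test. Named were the 20 highest and 10 longest members, the highest of each family of at least 3, those in the tables of the study and those at the thresholds. Further tags were picked for naming with their values known. The members, lists and letters were chosen with earlier results of these data known. Steps were tested on simulated data. Matches to proteins and the gene lists that need them were not made here. The sequences of some members are not reported here.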

Additional observations from a re-analysis of the deposited data

How the results depend on the processing

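The number of members followed the rule: 663 with AC of at least 50, 156 with AC of at least 200 and 190 with a length of at least 150 bp, against 328. Joining members within 100 bp gave 315, and adding ECAUn and the Mt genome 399. At 90% identity, 7 members in place of 17 were similar to listed rRNA tags, matches of a tag to itself included. The 7SL and Mt counts stayed within 1.5 times the reported ones. With limits of 10% and 90% masked bases, 74 members in place of 28 counted as masked and 30 in place of 93 as partly masked, and 224 as unmasked. The members carried 37.0% of the coverage not multiplied by length and 85.8% of the coverage-weighted bases of placed chromosomes, against 35.9%. Windows of 20 bases for exon-like ends, gaps of 5 and 20 kb for runs and 90% identity for families were added after seeing the data and kept the counts within 1.5 times. No paired analysis was made, because the deposited data hold 1 value per tag and only 1 group. Leaving out a stallion was not run, since values of single samples outside the deposited data were used only to check the deposited value. Protein matches were not run, since no protein sequences were used here. Tags listed at 1 position can stand for several copies, and a single AC has no error.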
